A study of Mus musculus with 4 samples.

Results

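Semaphorins, plexins, neuropilins, Eph receptors, ephrins, netrins, Slits, Robo receptors and Unc5 receptors were followed in cultured mouse germline stem cells in which Nanos2 was switched on. They were chosen by gene name: every non-control probe whose symbol on the array belongs to one of these families was taken, which gave 125 of 41174 probes, for 70 of 27370 genes or other array features. Of these 70 genes, 60 passed the detection flag of the scanner software (well above background) on 2 or more of the 4 arrays and were measured, among 17537 features measured in all. The series asked which mRNAs respond to ectopic Nanos2, which binds RNA and holds spermatogonial stem cells in an undifferentiated state. The cells were male germline stem cells from testis, and both groups carried Roa-CreERT2 (so spelled in the labels, a tamoxifen-dependent Cre recombinase that the growth protocol calls a knock-in) and CAG-CAT-3FlagNanos2-pA, a construct for tagged Nanos2 under the broadly active CAG promoter. The control group, 2 arrays, took DMSO for 48 hours. The other group, 2 arrays, took 4-hydroxytamoxifen for 48 hours and is called treated here. Neither group lacked the construct or the recombinase, so Nanos2, the compound and recombination cannot be told apart. The age of the mice and whether the line is a single clone are not given in the sources used here. The cells grew on mitomycin-treated mouse embryonic fibroblasts from C57Bl6 embryos, with GDNF, EGF and FGF2, and the fibroblasts were removed before RNA extraction.

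Guidance proteins tell growing axons and migrating cells where to go, and most work as ligand and receptor pairs at or near the cell surface. Secreted class 3 semaphorins are held by neuropilins and signal through plexins, while membrane-bound semaphorins of the other classes mostly bind plexins directly. Ephrins sit on the membrane of one cell and bind Eph receptor tyrosine kinases on its neighbour, with ephrin-A proteins anchored by a lipid and ephrin-B proteins crossing the membrane. Secreted Slits act through Robo receptors, and netrins through Dcc, neogenin and the Unc5 receptors. The same families act outside the nervous system, in vessel growth, epithelial sheets, bone and immune cells.

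Each array value is the scanner's processed signal in arbitrary units. Each difference is the mean log2 value in treated cells minus that in DMSO cells, ± the standard error of the limma fit, after scaling each array to its 75th percentile. A gene is called higher or lower where limma's Benjamini-Hochberg adjusted p over all 17537 features lies below 0.05. Nothing in the labels ties the replicates to separate cultures. The p-values therefore cover the spread among these 4 arrays, and that spread may be technical. With 2 arrays against 2, an exact two-sided permutation test cannot go below 0.333. Nanos2, the targeted gene, read 353 and 352 under DMSO and 904 and 1070.1 when treated, a difference of 1.55 ± 0.10 (limma adjusted p = 0.000866). Between 62.1% and 65.9% of spots were well above background on each array, and no spot was saturated. Markers of spermatogonia were present, with 15 of 16 listed genes measured. Of these 15, 13 were lower in treated cells, where 29.3% of all features were lower.

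The array reads each gene with probes of 60 bases, and the probes themselves are shown for the genes whose measurement the results lean on most. The first 30 bases are printed for probes that lie in 1 block of the genome, with positions on mm9 as the files give them. Exon and UTR annotation of mm9 was not used here. For Slit2, a secreted repellent, and Plxna2, a plexin that works with neuropilins, several independent stretches gave the same direction:
Slit2, brightest probe, chr5:48696502-48696531, plus strand: cctccttcaggacacttgcagaaggtttgc
Slit2, second probe, chr5:48695876-48695905, plus strand: gacacatcgagcacaagtgtgtgagtgaga
Plxna2, brightest probe, chr1:196642958-196642987, plus strand: catgtacctattgtaaatatgaaactccta
Plxna2, second probe, chr1:196638380-196638409, plus strand: gagagactcatataagctatcacactggct
Plxna2, a further probe, chr1:196640289-196640318, plus strand: cagcaaaatactcaggaaacttgctgattt
The 2 Slit2 probes differed between groups by 1.54 and 1.58, and the 3 Plxna2 probes by 1.70, 1.24 and 1.19. The array holds 4 more Slit2 probes, none detected on 2 arrays.

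For Epha1 and Sema4c, the members that fell furthest, the stretches were these:
Epha1, the single probe, chr6:42308613-42308642, minus strand: tcaatcagaactctgcctttgaaccaagga
Sema4c, brightest probe, chr1:36606093-36606122, minus strand: tgcaaggaagaggtttcaagatgtgggcgt
Sema4c, second probe, chr1:36606551-36606580, minus strand: ctctgccttctccaactcggctccacctag
Both Sema4c probes were called lower, with differences of -1.65 and -0.98, so the direction rests on 2 places in this transcript and on 1 place in that of Epha1.

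Of the 60 measured members, 32 were higher (53.3%), 17 were lower (28.3%) and 11 were not called. Among all 17537 measured features 69.5% were called, 40.3% higher and 29.3% lower, so most measured features were called. The share of lower members was near that background. Differences of at least 2-fold were found for 23 members upward (38.3%, against 16.2% of all features) and for 8 downward (13.3%, against 8.19%). The 23 hold Sema3d, Sema6a and Ntn4, which were detected only in treated cells, and Sema6a has a bound of only 1.74-fold. Among the 52 members detected on all 4 arrays, 17 were at least 2-fold higher and 8 at least 2-fold lower (backgrounds 13.8% and 7.91%). The median difference was 0.60 over the members and 0.11 over all features. Scaling on the spike-in controls moved both medians down, to 0.45 and -0.04, with 30 members higher and 18 lower. Under that scaling 9659 of the 17537 features were called in either direction, against 12195 in the main setting. The median was smaller without dim genes: over the 52 members well above background on all 4 arrays it was 0.26, with 26 higher and 18 lower when only such probes were tested (backgrounds 41.0% and 31.8%). It was 0.34 under normexp background correction, which pulls low signals together by adding an offset. The groups were fully separated, with no array of one inside the range of the other, in 55 of the 60 members, against 86.5% of all features.

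**Figure D1:**
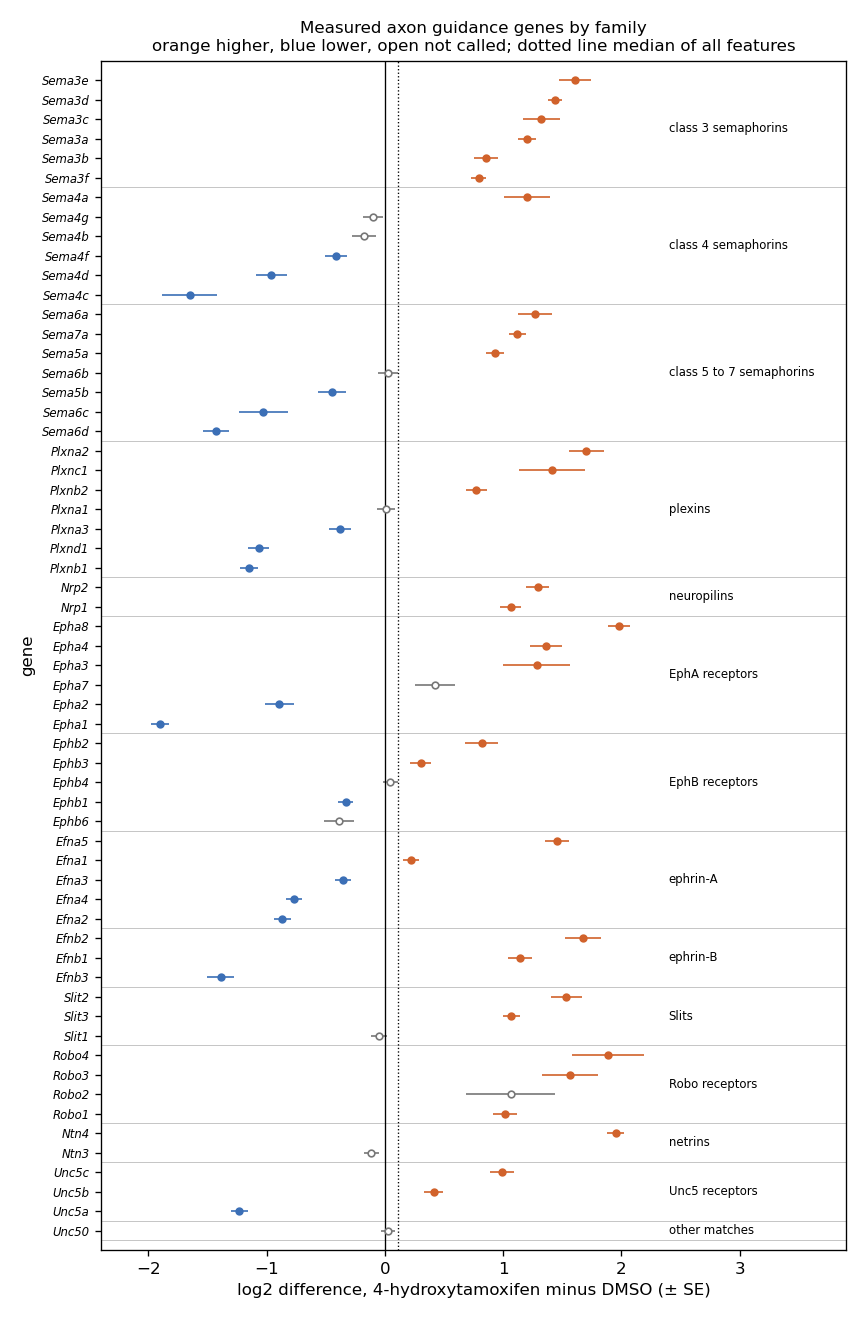
Log2 difference, 4-hydroxytamoxifen minus DMSO, with its standard error, for each of the 60 measured members, grouped by family; 2 arrays per group. All 6 measured class 3 semaphorins and both neuropilins lie to the right of 0. Of these, Sema3d was detected only in treated cells. The membrane-bound semaphorins, plexins, Eph receptors and ephrins lie on both sides.

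Of the 11 measured secreted ligands (class 3 semaphorins, Slits and netrins), 9 were higher and 2 not called, with a median of 1.21, where 40.3% of all features were higher and 29.3% lower. Sema3d and Ntn4 are among the 9 but entered the measured set only through the treated arrays. Of the 9 secreted ligands detected on all 4 arrays, 7 were higher and 2 not called, with a median of 1.07. Of the 13 membrane-bound semaphorins, 4 were higher, 6 lower and 3 not called, with a median of -0.18. Whether these families differ from each other was not tested. Markers of other cell types also differed between groups. Of 23 measured markers of embryonic fibroblasts, the feeder cell type, 22 were higher, with a median of 0.93 and a range from 0.26 (Col1a1, not called) to 1.48 (Thbs1). The summed level of these markers, on the scale where each array's 75th percentile is 1, came to 371 and 427 under DMSO and 732 and 698 when treated. The part of feeder cells in the members' values was not tested. No measured fibroblast marker was lower. Of the 60 members, 17 were lower (28.3%, against 29.3% of all features). The highest of the 23 markers sets no upper limit for other fibroblast transcripts, so a count above it does not tell their source. A larger difference than that of the highest fibroblast marker was found for 8 members (Epha8, Ntn4, Robo4, Plxna2, Efnb2, Sema3e, Robo3 and Slit2). That holds for 3 of the 8 under normexp correction, which leaves out Epha8 (0.92), Ntn4 (0.56), Robo4 (0.57), Robo3 (1.05) and Sema3e (1.16) against a highest marker of 1.43. Without DMSO replicate 2 it holds for 6, without DMSO replicate 1 or treated replicate 2 for 7, and Ntn4 and Robo4 were not detected on all 4 arrays. In bulk RNA, more cells of a type and more RNA per cell cannot be told apart.

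For the counts that follow, 40.3% of all features were higher and 29.3% lower. Markers of macrophages and blood were higher for 7 of 9 measured genes, with sums of 16.4 and 18.2 under DMSO and 35.8 and 36.7 when treated. Endothelial markers were higher for 5 of 7, with low sums of 0.596 and 0.610 in DMSO and 1.39 and 1.44 in treated cells, and the defining genes Cdh5 and Tie1 were not above background. Sertoli and Leydig markers were higher for 5 of 8 and lower for 2, with sums of 5.45 and 6.06 against 12.3 and 11.7, and Amh, Gata4, Cyp11a1 and Hsd3b1 were not above background. Neuron and glia markers, the cell types in which guidance genes are best known, were higher for 4 and lower for 3 of 10, with sums of 4.01 and 4.42 against 3.56 and 3.65. Gfap and Olig2 were not above background. Spermatogonial markers summed to 196 and 194 in DMSO and 116 and 122 in treated cells, and their median difference was -1.41. What these shifts contribute to the members' values was not tested.

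**Figure D2:**
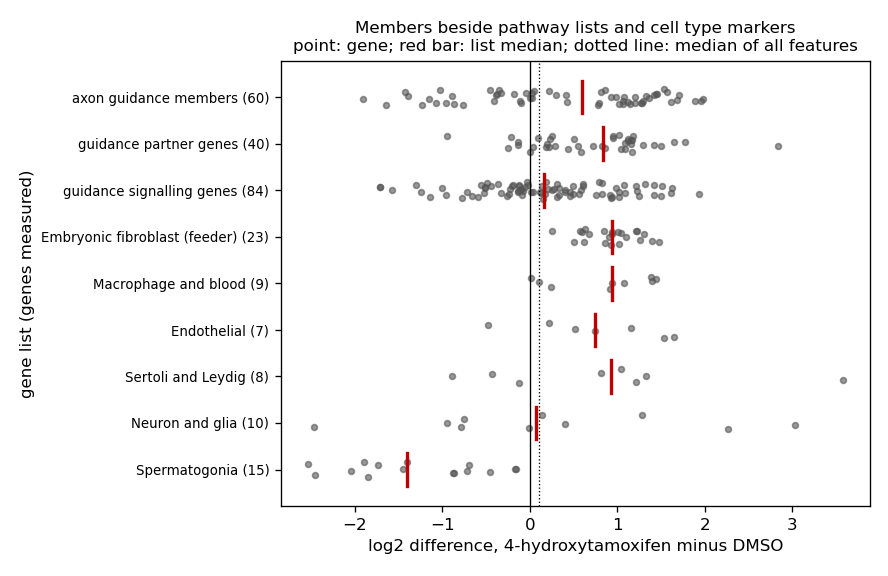
Log2 difference, 4-hydroxytamoxifen minus DMSO, of each measured gene (grey points) in the members, the lists of partner and signalling genes, and the marker lists; red bars are list medians and the dotted line is the median of all features (0.11). The fibroblast markers lie between 0.26 and 1.48, and the members spread on both sides of 0.

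All 6 measured class 3 semaphorins, the secreted members of the family, were higher in treated cells, where 40.3% of all features were higher. Sema3d is among the 6 but entered the measured set only through the treated arrays. Each of the 6 kept that call in every alternative that measured it. Sema3e, which binds Plxnd1 directly without a neuropilin, read 128 and 125 under DMSO and 415 and 327 when treated. Its difference was 1.61 ± 0.13, or 3.05-fold (limma adjusted p = 0.00128). Sema3c, known from outflow tract development in the heart, read 78.5 and 102 under DMSO and 228 and 200.02 when treated, a difference of 1.32 ± 0.16 (2.50-fold, adjusted p = 0.00277), or 0.88 under normexp correction. The groups did not overlap in either gene, as in 86.5% of all features. Sema3a, the prototype growth cone repellent, read 48.5 and 53.7 in DMSO and 112 and 112 in treated cells, and differed by 1.21 ± 0.08 (adjusted p = 0.000785), or by 0.66 under normexp correction. Sema3d, under the detection limit in both DMSO arrays, read 13.3 and 13.0 under DMSO and 33.8 and 33.9 when treated. That is at least 2.07-fold higher. The bound puts each DMSO array at its detection floor (its lowest flagged signal) or at the probe's own reading, whichever is higher. The limma adjusted p of Sema3d (0.000472) comes from the fit to the readings themselves and does not test the bound. Sema3b and Sema3f moved less. Sema3b differed by 0.86 ± 0.10 (adjusted p = 0.00264) and Sema3f, the main ligand of Nrp2, by 0.79 ± 0.07 (adjusted p = 0.00126).

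The genes Sema3d, Sema3a, Sema3e and Sema3c lie on mouse chromosome 5, so the 250 bases before the start of each, from RefSeq on GRCm38.p6, are shown. Capitals mark any of 4 motifs, searched on both strands with no overlap among their matches here. The GC box is spelled GGGCGG. The CCAAT box has only the letters of its name. The TATA box is spelled TATAAA. The E-box searched is the palindrome CACGTG. The windows read:
Sema3d, chr5:12382916-12383165, plus strand: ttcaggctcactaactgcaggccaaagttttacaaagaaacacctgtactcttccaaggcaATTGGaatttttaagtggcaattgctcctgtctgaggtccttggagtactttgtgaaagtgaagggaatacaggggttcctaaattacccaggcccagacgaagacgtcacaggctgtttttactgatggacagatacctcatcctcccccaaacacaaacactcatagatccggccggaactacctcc
Sema3a, chr5:13396534-13396783, plus strand: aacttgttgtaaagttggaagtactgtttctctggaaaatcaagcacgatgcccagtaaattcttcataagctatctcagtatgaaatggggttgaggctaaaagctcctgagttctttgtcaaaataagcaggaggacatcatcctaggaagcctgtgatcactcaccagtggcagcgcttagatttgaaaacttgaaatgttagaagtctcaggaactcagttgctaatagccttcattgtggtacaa
Sema3e, chr5:14025026-14025275, plus strand: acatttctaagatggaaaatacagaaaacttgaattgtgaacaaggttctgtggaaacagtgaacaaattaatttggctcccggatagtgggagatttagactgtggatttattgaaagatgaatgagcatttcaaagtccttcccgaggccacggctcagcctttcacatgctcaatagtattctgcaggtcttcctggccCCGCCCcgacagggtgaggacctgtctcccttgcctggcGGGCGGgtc
Sema3c, chr5:17574566-17574815, plus strand: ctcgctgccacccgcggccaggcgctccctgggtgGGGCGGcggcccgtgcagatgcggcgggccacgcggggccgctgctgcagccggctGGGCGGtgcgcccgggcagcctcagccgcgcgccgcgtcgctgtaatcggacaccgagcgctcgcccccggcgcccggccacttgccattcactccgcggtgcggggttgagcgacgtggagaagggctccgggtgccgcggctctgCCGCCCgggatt
The start used for Sema3a lies inside the span of the gene. The Sema3c window is 78.4% G or C with 39 CpG and 3 GC boxes, and the Sema3e window is 48.0% G or C with 7 CpG and 2 GC boxes. The Sema3d window holds 1 CCAAT box and the Sema3a window none of the 4 motifs, with 46.8% and 40.8% G or C. Among 32851 such windows of all genes in the table, 32.7% hold a GC box, 33.8% a CCAAT box, 12.4% a TATA box and 6.02% an E-box, with medians of 52.4% G or C and 6 CpG. No motif searched is shared by all 4 windows. A match is a description of letters and says nothing about binding.

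The neuropilins, which hold class 3 semaphorins and also bind VEGF, were both higher, as were 40.3% of all features. Nrp2 read 2071 and 2397 under DMSO and 5415 and 4991 when treated, and differed by 1.29 ± 0.10 (2.45-fold, limma adjusted p = 0.00112). Nrp1 read 49.1 and 54.9 under DMSO and 108 and 99.3 when treated, and differed by 1.06 ± 0.09 (2.09-fold, adjusted p = 0.00126). Neither gene's groups overlapped, as in 86.5% of all features. Both kept their call in all 12 alternatives, although Nrp1 gave 0.63 under normexp correction.

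Class 4 semaphorins, single-pass membrane proteins that mostly signal through plexins of the B group, were higher for 1, lower for 3 and not called for 2 of 6 members, beside 29.3% of all features lower. Sema4c, a ligand of Plxnb2, read 347 and 337 under DMSO and 83.3 and 129.99 when treated, a difference of -1.65 ± 0.23 (3.13-fold lower, limma adjusted p = 0.00456). Sema4d, the immune cell semaphorin that binds Plxnb1, read 278 and 258 under DMSO and 118 and 146 when treated and fell by 0.96 ± 0.13 (adjusted p = 0.00403). The 2 treated arrays of Sema4c were farther apart than its DMSO arrays. Its groups did not overlap, as in 86.5% of all features. Sema4f differed by -0.41 ± 0.09 (adjusted p = 0.0184) and lost its call without DMSO replicate 1 (adjusted p = 0.0602), without treated replicate 1 (0.0682) or with dim probes kept (0.0633). The single higher member was Sema4a, known from T cells and retina, which read 54.8 and 38.8 under DMSO and 96.0 and 106 when treated and differed by 1.20 ± 0.20 (adjusted p = 0.00692), or by 0.56 under normexp correction. Sema4b (-0.18 ± 0.10) and Sema4g (-0.10 ± 0.09) were not called, although quantile scaling called Sema4b lower (-0.41, adjusted p = 0.0440).

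Semaphorins of classes 5 to 7 split evenly, with 3 higher, 3 lower and 1 not called, beside 40.3% of all features higher and 29.3% lower. Sema7a, the only semaphorin anchored to the membrane by a lipid, read 589 and 548 under DMSO and 1159.5 and 1193 when treated, a difference of 1.12 ± 0.07 (2.17-fold, limma adjusted p = 0.000837). Sema6a, likewise undetected under DMSO, read 10.8 and 14.2 under DMSO and 28.5 and 28.4 when treated, at least 1.74-fold higher. Its limma adjusted p (0.00266) comes from the fit to these readings and does not test the bound. Sema5a, whose outer part carries thrombospondin repeats, differed by 0.93 ± 0.07 (adjusted p = 0.00117). Its relative Sema5b went the other way, by -0.45 ± 0.12 (adjusted p = 0.0282), a call lost in 4 of 12 alternatives, among them without DMSO replicate 1 (adjusted p = 0.0552), treated replicate 1 (0.122) or treated replicate 2 (0.0967). Its 2 other probes fell further, by 1.11 and 0.81. Sema6d, a ligand of Plxna1, read 942 and 916 under DMSO and 359.9 and 301 when treated and differed by -1.43 ± 0.11 (2.69-fold lower, adjusted p = 0.00111). Sema6c read 287 and 252 under DMSO and 105 and 151 when treated. It differed by -1.03 ± 0.20 (adjusted p = 0.0128), and its groups did not overlap, as in 86.5% of all features. Sema6b was not called (0.03 ± 0.08).

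Among 7 measured plexins, the signalling receptors of the semaphorins, 3 were higher, 3 lower and 1 not called. The shares over all features were 40.3% higher and 29.3% lower. Plxna2 read 336 and 419 under DMSO and 1265 and 1072 when treated, a difference of 1.70 ± 0.15 (3.26-fold, limma adjusted p = 0.00139). Plxnb2 read 2774 and 3113 under DMSO and 4571 and 5021 when treated and differed by 0.78 ± 0.09 (adjusted p = 0.00287). Plxnc1, the receptor of Sema7a, read 13.2 and 22.6 under DMSO and 41.6 and 46.5 when treated and differed by 1.42 ± 0.28 (adjusted p = 0.0122). It was detected on 1 of the 2 DMSO arrays, and its call was lost without either treated replicate (adjusted p = 0.0572 and 0.0704). Normexp correction gave 0.47. Plxnd1, the receptor of Sema3e, went down while its ligand went up: it read 764 and 719 under DMSO and 318 and 357 when treated, a difference of -1.07 ± 0.09 (2.10-fold lower, adjusted p = 0.00129). Plxnb1 read 793 and 798 under DMSO and 326 and 358 when treated and differed by -1.15 ± 0.08 (adjusted p = 0.000852), in the same direction as its ligand Sema4d. Plxna3 differed by -0.38 ± 0.09 (adjusted p = 0.0231) and lost its call in 4 alternatives, among them without DMSO replicate 1 (0.0570), DMSO replicate 2 (0.0627) or treated replicate 2 (0.0687). Plxna1, with 1398 and 1501 in DMSO and 1335 and 1441 in treated cells, overlapped between groups and was not called (0.01 ± 0.08).

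Of the 6 measured EphA receptors 3 were higher, 2 lower and 1 not called, where 40.3% of all features were higher and 29.3% lower. Epha8 read 25.4 and 29.2 under DMSO and 100.3 and 104 when treated, a difference of 1.98 ± 0.09 (3.95-fold, limma adjusted p = 0.000518). This dim probe gave 0.92 under normexp correction, still higher. Epha4, a receptor that binds ephrins of both groups, read 127 and 142 under DMSO and 369 and 296 when treated and differed by 1.36 ± 0.14 (adjusted p = 0.00183). Epha3 read 17.0 and 25.8 under DMSO and 58.1 and 40.7 when treated and differed by 1.28 ± 0.28 (adjusted p = 0.0167). It was above background on 1 of 2 DMSO arrays, gave 0.47 under normexp correction, and was no longer called without treated replicate 1 (adjusted p = 0.0745) or with dim probes kept (adjusted p = 0.0515). Epha1, the founding member of the family and common in epithelia, read 4204 and 4239 under DMSO and 1024 and 1127 when treated, a difference of -1.90 ± 0.08 (3.74-fold lower, adjusted p = 0.000453). Epha2, the other epithelial member, read 5586 and 6899.7 under DMSO and 3291 and 3092 when treated and differed by -0.89 ± 0.12 (adjusted p = 0.00421). For both, the treated arrays lay below the DMSO arrays on bright probes. Overlap between groups was absent in 86.5% of all features. Epha7 read 108 and 139 under DMSO and 174 and 142 when treated and was not called (0.42 ± 0.17, adjusted p = 0.0876), though its arrays did not overlap. It was called under normexp correction (adjusted p = 0.0171) and without DMSO replicate 2 (adjusted p = 0.0277).

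All 5 EphB receptors were measured, with differences between -0.38 and 0.82, and 2 were higher, 1 lower and 2 not called. Over all features 40.3% were higher and 29.3% lower. Ephb2 read 707 and 779 under DMSO and 1112 and 1395 when treated, a difference of 0.82 ± 0.14 (limma adjusted p = 0.00731). A second Ephb2 probe, which spans 1398 bases of genome and so crosses at least 1 splice junction, differed by 0.44 ± 0.09. Ephb3 differed by 0.30 ± 0.09 (adjusted p = 0.0357), a call lost in 6 alternatives: without DMSO replicate 1 (0.126), treated replicate 1 (0.132) or treated replicate 2 (0.120), with dim probes kept (0.106), with a replicate block (0.0683), and under spike-in scaling (0.562), where it gave 0.16. Ephb1 read 202 and 199.9 under DMSO and 149.6 and 154 when treated and differed by -0.33 ± 0.06 (adjusted p = 0.0104, and 0.0565 without treated replicate 1). Ephb4, the main receptor of ephrin-B2 in vessels, was not called (0.05 ± 0.06), and neither was Ephb6, which lacks kinase activity (-0.38 ± 0.13, adjusted p = 0.0534). Ephb6 was called lower in 4 alternatives, among them without DMSO replicate 2 (adjusted p = 0.0350). The 60 bases of that Ephb2 probe, and of the Plxna3 probe that crosses a junction, are shown because these probes differed in size from the brightest probe of their gene:
Ephb2, chr4:136213476-136214873, minus strand: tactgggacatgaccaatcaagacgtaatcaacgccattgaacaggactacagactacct
Plxna3, chrX:71587057-71587288, plus strand: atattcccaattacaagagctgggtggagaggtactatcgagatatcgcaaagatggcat
The Plxna3 probe read 36.6 and 40.4 under DMSO and 14.0 and 18.5 when treated, not well above background when treated, and its fitted difference was -1.19 against -0.38 for the brightest probe.

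Ephrins, the ligands of the Eph receptors, were higher for 4 and lower for 4 of 8 members, and each type held both directions. Beside them, 40.3% of all features were higher and 29.3% lower. Efnb2, a marker of arteries that signals in both directions, read 748 and 967 under DMSO and 2758 and 2439.5 when treated, a difference of 1.68 ± 0.15 (3.20-fold, limma adjusted p = 0.00147). Efnb1 read 1511 and 1649 under DMSO and 3572 and 3082 when treated and differed by 1.14 ± 0.10 (adjusted p = 0.00149). Efnb3, the remaining transmembrane ephrin, went against them: it read 1524 and 1350.0 under DMSO and 483 and 563 when treated, a difference of -1.39 ± 0.12 (2.62-fold lower, adjusted p = 0.00130). All 3 kept their call in all 12 alternatives. Among the lipid-anchored ephrins, Efna5, a ligand in the map of the retina, read 1069 and 1223 under DMSO and 3136 and 2856 when treated and differed by 1.46 ± 0.10 (2.75-fold, adjusted p = 0.000889). Efna2 read 284 and 263 under DMSO and 143 and 143 when treated and differed by -0.87 ± 0.07 (adjusted p = 0.00133), and Efna4 differed by -0.77 ± 0.06 (adjusted p = 0.00129). Efna3 fell less, by 0.35 ± 0.06 (adjusted p = 0.00966, and 0.0545 without treated replicate 1). Efna1 was just past the threshold (0.22 ± 0.07, adjusted p = 0.0476) and kept its call in 2 of 12 alternatives. Leaving out any 1 array ended that call, with adjusted p between 0.0716 and 0.171, and spike-in scaling gave 0.07.

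**Figure D3:**
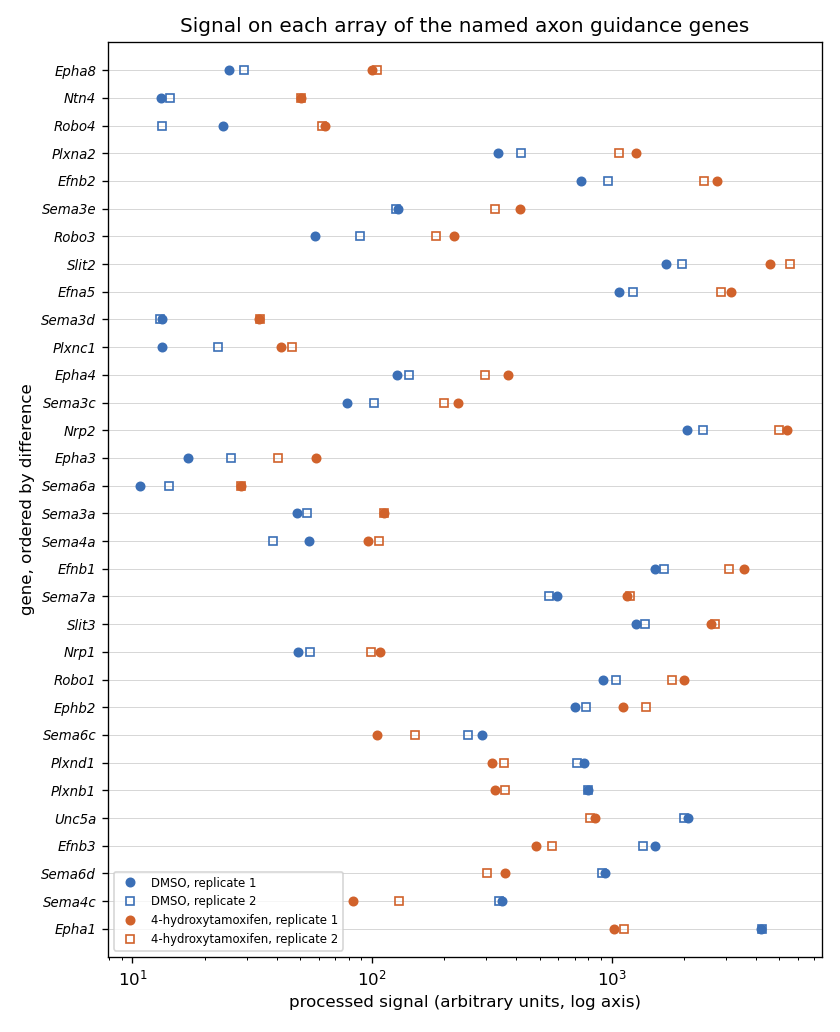
Processed signal on each of the 4 arrays (log axis) for the members called with a difference of at least 1 on the log2 scale, and for Ephb2, the most changed EphB receptor; circles are replicate 1 and squares replicate 2. That both treated arrays lie on one side of both DMSO arrays was a condition for drawing each gene except Ephb2, and held for 86.5% of all features. Levels of different probes are not comparable.

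Slits and Robo receptors were higher or not called, with no member lower apart from Slit1 under 1 alternative scaling. Among all features 40.3% were higher and 29.3% lower. Slit2 read 1693 and 1972 under DMSO and 4603 and 5528 when treated, a difference of 1.54 ± 0.13 (2.90-fold, limma adjusted p = 0.00133). Slit3 read 1266 and 1377 under DMSO and 2596 and 2689 when treated and differed by 1.07 ± 0.07 (2.10-fold, adjusted p = 0.000878). Slit1, the Slit most restricted to the nervous system, read 83.8 and 83.0 under DMSO and 74.5 and 79.5 when treated, and its groups overlapped once the arrays were scaled (-0.05 ± 0.07, adjusted p = 0.569). Under quantile scaling Slit1 was called lower, by -0.23 (adjusted p = 0.0480). Robo1, a main receptor of Slit2, read 918 and 1046 under DMSO and 1996 and 1789 when treated and differed by 1.02 ± 0.10 (2.02-fold, adjusted p = 0.00185). Robo3, which in mammals binds Slits poorly and acts at the midline, read 57.6 and 88.9 under DMSO and 219.8 and 185 when treated and differed by 1.57 ± 0.24 (adjusted p = 0.00571). Robo4, known from endothelium, read 23.9 and 13.3 under DMSO and 63.8 and 61.8 when treated and differed by 1.89 ± 0.31 (adjusted p = 0.00687). It was detected on 1 of 2 DMSO arrays and gave 0.57 under normexp correction; the endothelial markers that moved with it are given above. Robo2, under the detection limit in both DMSO arrays, read 7.996 and 16.8 under DMSO and 23.1 and 23.1 when treated, at least 1.41-fold higher, but its fit missed the threshold (adjusted p = 0.0639). It was called higher without DMSO replicate 1 (adjusted p = 0.0104), without DMSO replicate 2 (0.000851), and in 3 other alternatives.

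Netrins and Unc5 receptors were few. Ntn4, a netrin related to laminins and found in basement membranes, was undetected under DMSO and passed the filter only through the treated arrays. It read 13.1 and 14.3 under DMSO and 50.6 and 50.5 when treated, at least 3.09-fold higher. Its limma adjusted p (0.000430) comes from the fit to these readings and does not test the bound. Ntn3 was not called (-0.11 ± 0.06). Of the Unc5 receptors, which mediate repulsion by netrins, Unc5a read 2088 and 2005 under DMSO and 854 and 809 when treated, a difference of -1.23 ± 0.07 (2.34-fold lower, adjusted p = 0.000703). Unc5c moved up, from 31.9 and 35.9 to 60.1 and 67.9 (0.99 ± 0.10, adjusted p = 0.00194), though only by 0.41 under normexp correction. Unc5b differed by 0.41 ± 0.08 (adjusted p = 0.0122) and lost its call under spike-in scaling, where it gave 0.27. Unc50, caught by the same name rule but not a netrin receptor, was not called (0.03 ± 0.06).

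A further 10 genes of the rule were below the limit for measurement: Epha5, Epha6, Epha10, Ntn1, Ntn5, Plxna4, Plxnb3, Sema3g, Unc5d and Unc5cl, the last again not a netrin receptor. Ntn1, Plxna4 and Unc5d had a probe well above background on 1 array, and the others on none. Their brightest signals lay between 5.33 and 32.4. The filter left them out of the main test, so no call is given for them. Dcc, the other classical netrin receptor, was not above background either.

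Separate probes of a gene mostly moved in the same direction. Of the 83 member probes measured, tested one by one, 46 were higher (55.4%, against 36.2% of all probes) and 24 lower (28.9%, against 31.1%). In 19 of the 20 genes with at least 2 measured probes, all measured probes had the same sign. No gene had probes called in opposite directions. Probes that failed the filter are left out of these counts, and the matching share over all features is not given here. The exception in sign was Plxna1, whose probes gave 0.01 and -0.29, neither called. Sizes varied more than signs. Sema3c gave 1.32 on its brightest probe and 1.82 on the other, Sema4c -1.65 and -0.98, and Plxnb1 -1.15 and -0.65. The remaining 40 members rest on 1 probe each.

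**Figure D4:**
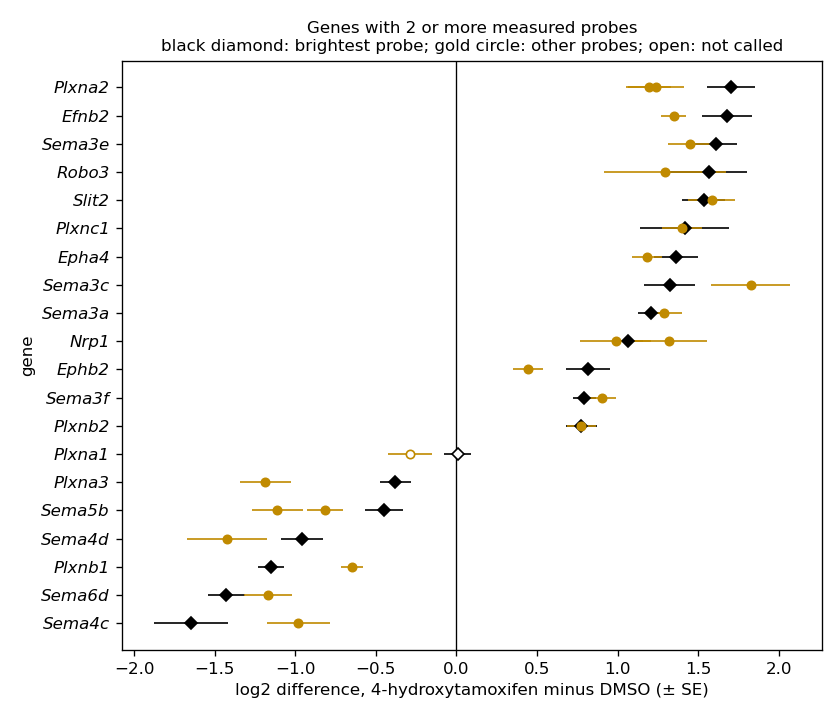
Log2 difference, 4-hydroxytamoxifen minus DMSO, with its standard error, of every measured probe in the 20 members with at least 2; black diamonds are the brightest probe, gold circles the others, and open symbols were not called. Apart from Plxna1, all probes of a gene lie on the same side of 0.

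Some members are neighbours in the genome. On mm9, 10 pairs of consecutive members lay within 1000 kb of each other, by the positions of their probes. In 5 pairs both genes were higher, in 1 both were lower, in 1 they went in opposite directions and in 3 at least 1 was not called. Of all measured members 53.3% were higher, and of all features 40.3%. Whether neighbours share a direction more often than other members was not tested. The pair of Sema4a and Efna1, among the 5, and the opposite pair, Efna1 and Efna3, both depend on the call of Efna1. Robo4 and Robo3 lie 2.2 kb apart on chromosome 9 with no coding gene between them, and were both higher. Efna1, Efna3 and Efna4 lie in a row on chromosome 3, with 42.3 and 19.6 kb between them and no other coding gene in the gaps, with Efna3 and Efna4 lower. Efna1 was called higher there, a call that 10 of 12 alternatives lost and that was 0.07 under spike-in scaling. Ephb2 and Epha8, 275.1 kb apart on chromosome 4, and Sema3b and Sema3f, 83.8 kb apart on chromosome 9, were each higher together. Genes between neighbours were counted in the RefSeq order of GRCm38.p6.

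The wider pathway was read from a list of 52 partner genes, meaning co-receptors, other ligands and adhesion proteins, of which 40 were measured. Of these, 28 were higher (70.0%, against 40.3% of all features), 1 was lower (29.3% of all features were lower) and 11 were not called, with a median of 0.84. The list shares Kdr with the endothelial markers. Dscam, a cell adhesion protein that also binds netrin, read 78.6 and 82.2 under DMSO and 539 and 555 when treated, a difference of 2.84 ± 0.06 (7.14-fold, limma adjusted p = 0.000369). Ntng1, a lipid-anchored relative of the netrins, differed by 1.77 ± 0.25 (adjusted p = 0.00454) and Slitrk5, a neuronal membrane protein with Slit-like repeats, by 1.65 ± 0.20 (adjusted p = 0.00290). Both were detected on 1 of 2 DMSO arrays, and under normexp correction they gave 0.58 and 0.55. Trem2, a macrophage receptor that can pair with a plexin, was 2.82-fold higher (adjusted p = 0.00189), and the macrophage markers that moved with it are given above. Erbb2, a receptor kinase that joins plexins of the B group, was the single lower partner, with 817 and 855 under DMSO and 425 and 399 when treated, a difference of -0.95 ± 0.07 (adjusted p = 0.00102). Quantile scaling called 4 partners lower, and leaving out DMSO replicate 2 called 2.

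Signalling genes inside the cell, which pass guidance cues to the cytoskeleton, lay nearer the background. Of 84 listed and measured, 40 were higher (47.6%, against 40.3% of all features) and 23 lower (27.4%, against 29.3%). The other 21 were not called, and the median was 0.16, against 0.11 over all features. Under spike-in scaling 23 of the 84 were higher. Fewer features of all were called too (9659 of 17537 in either direction, against 12195 in the main setting). Srgap1, a GTPase-activating protein bound by Robo receptors, read 835 and 1013 under DMSO and 3432 and 3262 when treated, a difference of 1.93 ± 0.11 (limma adjusted p = 0.000723). Its 4 measured probes disagreed, with 1 called higher and 2 called lower, the lowest at -0.65, and the mean of its probes was 0.24. Tiam2, which activates Rac, differed by 1.63 ± 0.11 (adjusted p = 0.000839), and Pak3, a kinase below Rac, by 1.61 ± 0.13 (adjusted p = 0.00127). The lower side was led by Arhgef15, which acts below Eph receptors (-1.71 ± 0.12, adjusted p = 0.000949), and Rnd2, a small GTPase that binds plexins (-1.71 ± 0.12, adjusted p = 0.000916). Dpysl5, of the collapsin response mediator family below semaphorins, differed by -1.30 ± 0.12 (adjusted p = 0.00166), or by -0.49 under normexp correction. Sos1, an activator of Ras, differed by -1.58 ± 0.11 (adjusted p = 0.000967), but another of its probes gave 1.20, and the mean of its probes was -0.19 and was not called.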

How the data were processed

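Total RNA was labelled with Cy3 and read on 4 one-colour Agilent arrays of design 014868. The deposited scanner files hold intensity values, background-subtracted and detrended by Agilent Feature Extraction 10.7.3.1, per the file headers; the submitters' processing notes name version 9.5. A deposited value table holds log2 values, which are the logged processed signals shifted by 1 fixed amount on each array, and was an alternative. Here, control and outlier spots were left out, repeated spots averaged, and log2 signals set against each array's 75th percentile. Lowest signals well above background were 15.0 to 19.5; 2 arrays per group limit the precision. Probes well above background on at least 2 arrays were kept, 26393 in all, and the brightest stood for its gene. Symbols were updated through RefSeq for 33636 probes; 7538 kept the file's name. Promoters were found for 54 of 60 measured members. The comparison used limma 3.58.1 under R 4.3.3 with treatment as the only factor, checked on simulated data, with Benjamini-Hochberg adjustment. All arrays shared 1 slide and 1 scan.

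Array values are given for called members with no overlap and a difference of at least 1, and for the most changed member of each family; up to 4 genes per direction are named from each pathway list. A gene that this rule names is not reported here. Other members are given by family, and array values beyond this rule were chosen after they were seen. Members and lists were chosen with earlier results of these data known. The correlation between deviations of equally numbered replicates was -0.05, so the numbers were not taken as pairs. Alternatives covered the background correction, scaling, filter, probe choice, the deposited table, a replicate block and leaving out each array; testing each probe on its own, and the count against the fibroblast markers under each alternative, were added after the data were seen.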

Additional observations from a re-analysis of the deposited data

How the results depend on the processing

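Across the 12 alternatives no called member reversed, and 39 of the 49 called members kept their call in each alternative that measured them. All alternatives reuse the same 4 arrays, and the matching share over all called features is not given here. Members higher ranged from 26 to 33 and members lower from 13 to 20, the range that leaving out each array gave being 28 to 33 and 13 to 17. The members' median, 0.60, was 0.34 with normexp correction, 0.45 with spike-in scaling, 0.26 over members above background on all 4 arrays, 0.47 with no filter, 0.53 averaging all probes per gene, and 0.47 to 0.72 leaving out each array. Normexp correction, with an offset of 50, moved 12 of 49 called members by more than 1.5 times, all still in their direction: Ntn4 gave 0.56, Plxnc1 0.47, Sema3d 0.40, Sema6a 0.37, Sema4a 0.56 and Sema3a 0.66. Averaging all probes per gene, Plxna3 gave -0.78 and Sema5b -0.79. Spike-in scaling gave 23 higher signalling genes (main 40) and 4852 higher features of all tested and 4807 lower features of all tested (main 7059 and 5136). Quantile scaling gave 4 lower partner genes (main 1), and leaving out each array gave 1 to 2; the cause was not tested. With the replicate number as a block, 31 members were higher and 17 lower, and 11047 features were called against 12195. The slide could not be fitted as a block, because all arrays shared it. Signal limits the dimmest members: Sema3d, Sema6a, Robo2 and Ntn4 have only a bound.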
